A study of Homo sapiens with 6 samples.

Results

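The 6 RNAs described here, NEAT1, MALAT1, TUG1, FTX, PVT1 and LINC-PINT, are long noncoding RNAs known to be kept largely in the nucleus. They were taken by symbol from a table of 25287 genes, and all 6 symbols were listed. The table compares RNA of NCI-H1299 cells, a human line grown from a lung tumour and labelled lung adenocarcinoma, between 3 shControl libraries, carrying a control short hairpin RNA, and 3 shALDH18A1 libraries, carrying a hairpin against ALDH18A1. ALDH18A1 encodes P5CS, a mitochondrial enzyme of proline synthesis, and the series title calls P5CS an RNA-binding protein that acts on translation. The design text names the control as puro. Both groups were untreated otherwise as far as the labels say, and no label gives a time after the hairpin, the number of clones or the sequence of either hairpin. No nuclear or cytoplasmic fraction was sequenced, so nuclear retention is background here and was not measured.

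A long noncoding RNA is a transcript made much like a messenger RNA but not known to encode a protein. Those that stay in the nucleus act there as scaffolds for protein bodies, as partners of chromatin complexes, or through transcription of their own locus. NEAT1 is the RNA core of paraspeckles, small nuclear bodies that hold RNA-binding proteins such as NONO and SFPQ. MALAT1 is enriched in nuclear speckles, the compartments that store splicing factors. TUG1 has been linked to Polycomb complexes, FTX lies in the X-inactivation centre, PVT1 lies next to the MYC gene, and LINC-PINT has been linked to Polycomb as well.

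NEAT1 and MALAT1 are neighbours, and each ends in an unusual way that sets it apart from ordinary messenger RNA. The long NEAT1 isoform and MALAT1 are not polyadenylated. RNase P cuts off a tRNA-like small RNA, and the new 3′ end folds into a triple helix in which U-rich stretches hold an A-rich tail. The last 110 bases before that end are shown because they are the feature that the 2 RNAs share and the other members are not known to have. They come from GENCODE release 29 transcripts on GRCh38, on the + strand, at chr11:65445431-65445540 for NEAT1 and chr11:65506007-65506116 for MALAT1. Capitals mark every stretch of at least 8 bases that occurs in both ends.
NEAT1: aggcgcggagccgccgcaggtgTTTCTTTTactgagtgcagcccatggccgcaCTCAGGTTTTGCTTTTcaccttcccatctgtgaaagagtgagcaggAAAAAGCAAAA
MALAT1: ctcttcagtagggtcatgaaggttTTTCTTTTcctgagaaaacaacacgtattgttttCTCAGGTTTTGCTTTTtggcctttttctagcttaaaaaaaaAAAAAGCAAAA
The shared stretches are 8, 16 and 11 bases long and come in the same order in both RNAs. The NEAT1 stretch closes the 22743-base annotated transcript. The MALAT1 stretch stops at the base before the 57-base tRNA-like small RNA, mascRNA, annotated from 65506117 to 65506173. A library made from poly(A) RNA and one made from total RNA depleted of ribosomal RNA would catch such ends differently, and the sources used here do not say which was made.

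Values are those of the authors' deposited table: 1 mean normalized count per gene over the libraries, 1 log2 fold change with its standard error (SE), and an adjusted p from the DESeq2 Wald test. Per-library values were not analysed here, so no spread over the 3 libraries of a group is given. The SE is the model's error of the difference between the groups and is not the spread within either. The file does not name the numerator of the fold change, and the value of ALDH18A1, with a log2 fold change of −0.08 (SE 0.07, adjusted p = 0.471 from DESeq2) in the authors' deposited table, does not settle it. Results are therefore given as lying on the positive or the negative side, and neither side is assigned to a hairpin. The labels do not tell separate cultures from repeat libraries of 1 culture, so p-values may measure technical spread only. Counts on each side were computed from the deposited mean and fold change for groups of equal size.

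The mean counts of all genes sum to 43175646, with a median of 63.7, and the members lie between 464 and 15177. A pair of noncoding genes of the ribosomal locus, ENSG00000280441 and ENSG00000278996, holds 16.6% of the summed counts. Their deposited log2 fold changes were −0.31 and −0.32 (SE 0.14 for each). Neither passed the adjusted threshold of 0.05, with adjusted p-values of 0.0620 and 0.0634 from DESeq2 in the authors' deposited table. All 13 mitochondrial mRNAs listed lie on the positive side, with a median of 1.59. Of 8 markers of the lung line, 6 are listed, among them VIM, KRT8 and KRT18, while NKX2-1 and SFTPC have no row. Of 10 markers of immune, endothelial and fibroblast cells, 8 are listed, with mean counts of 2.49 to 116 that sum to 379, while the T cell marker CD3E has no row. Of the 8, 3 passed the adjusted threshold of 0.05, all positive: PECAM1 with a log2 fold change of 2.53, DCN with 2.54 and CD14 with 2.33. The share passing over all genes was 42.4%. The other 5 lay below 0 and were not called, among them the endothelial markers CDH5 at −0.26 and VWF at −0.11 and the fibroblast markers COL1A1 at −0.17 and LUM at −0.57, and the median of the 8 was −0.14. Whether any of these differences, called or not, has a part in the members' values was not tested.

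Of the 6 RNAs, 4 passed the adjusted threshold of 0.05, all on the positive side: NEAT1, MALAT1, TUG1 and FTX. PVT1 and LINC-PINT did not pass. The share called among all genes was 42.4% in either direction, 20.9% positive and 21.5% negative. Among the 8001 genes counted at least as deeply as FTX, the member with the lowest count, 80.1% were called, 33.3% positive and 46.8% negative. The members' 4 of 6, or 66.7%, is thus no larger a share than that of equally counted genes. All 4 calls are positive, and no test of that direction was made. Of the 149 long noncoding RNA genes counted that deeply, 79.2% were called, 50.3% positive, and their median log2 fold change was 0.25 beside −0.15 for all genes of that depth. The members' median was 0.65. A log2 fold change of at least 1 with a positive call was seen for 2 of the 6 members, or 33.3%, and for 11.7% of genes of that depth.

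**Figure D1:**
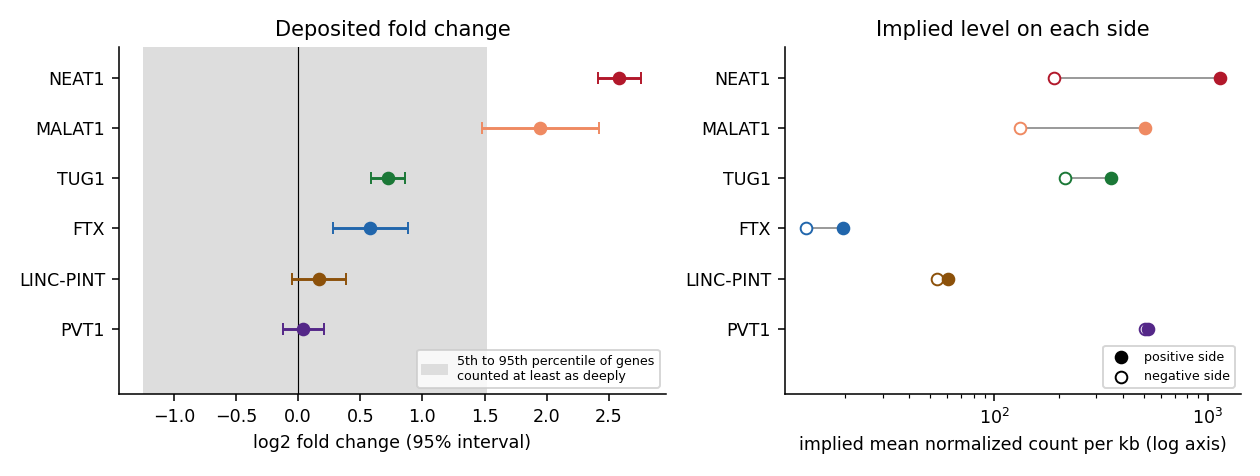
The left panel plots the deposited log2 fold change of each RNA with its interval of 95% over a grey band, from −1.24 to 1.51, that holds the 5th to 95th percentile of genes counted at least as deeply as FTX, and the right panel its mean normalized count on the positive and the negative side, per kb of exon, on a log axis. NEAT1 and MALAT1 lie at 2.58 and 1.95, TUG1 and FTX at 0.72 and 0.58, and the intervals of LINC-PINT and PVT1 cross 0.

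NEAT1 had the highest mean count of the 6 and differed most. It spans chr11:65422774-65445540 on the + strand (ENSG00000245532), with 8 annotated transcripts whose exons together cover 22767 bases. By the authors' deposited table its mean normalized count was 15177, which corresponds to 26016 on the positive and 4338 on the negative side. Its log2 fold change was 2.58 (SE 0.09, interval of 95% from 2.41 to 2.76), or 5.31 to 6.78-fold, with an adjusted p of 1.4e-179 from DESeq2 in the authors' deposited table. NEAT1 ranked first by fold change among the 149 long noncoding RNA genes counted at least as deeply as FTX and 65th among all 8001 genes of that depth. NEAT1 alone held 60.5% of the members' summed counts. It is made as a short polyadenylated isoform and the long one that builds paraspeckles. The isoforms share their 5′ part, so 1 count per gene cannot tell them apart.

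MALAT1 came next in size but with a far wider error. It spans chr11:65497688-65506516 on the + strand (ENSG00000251562), 52147 bases beyond NEAT1, with 17 transcripts over 8829 exonic bases. By the authors' deposited table the mean count was 2828, or 4492 on the positive and 1164 on the negative side. The log2 fold change was 1.95 (SE 0.24, interval from 1.48 to 2.42), or 3.86-fold with a range of 2.78 to 5.35, and the authors' deposited table gave an adjusted p of 4.08e-15 from DESeq2. MALAT1 ranked 5th of the 149 long noncoding RNA genes. Its interval meets that of NEAT1 only at the edge, at 2.41 to 2.42. The range reaches from under 3-fold to above 5-fold.

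The SE of MALAT1 stands apart from those of genes with like counts. Over the 501 genes within 250 ranks of its mean count the median SE was 0.0733, and that of MALAT1 was 3.28 times as large. Of those genes 99.4% had a smaller SE. NEAT1 also exceeded its own reference set, 1.48 times the median of 0.0606, with 98.4% of the genes below it. TUG1 did not, at 0.959 times its median. PVT1, FTX and LINC-PINT lay at 1.16, 1.15 and 1.08 times theirs. In DESeq2 the SE at a given count rises with the estimated spread between libraries of a group, so that spread was estimated as larger for MALAT1 than for nearly all genes of its depth. The part of any 1 library in it was not tested. TALAM1, an antisense RNA in the RefSeq annotation, overlaps 82.1% of MALAT1 and has no row of its own. The strand setting of the counting is unstated in the sources used here, so reads of the pair cannot be told apart.

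**Figure D2:**
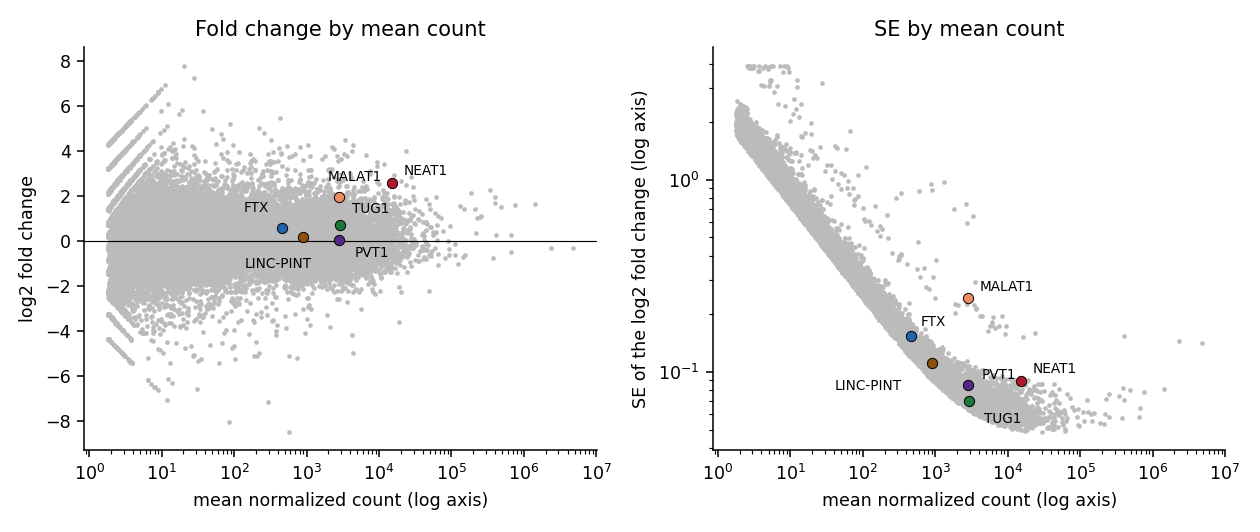
Each grey point is 1 gene of the table, placed by its mean normalized count on a log axis, with the log2 fold change on the left and its SE, on a log axis, on the right. The 6 RNAs are coloured: NEAT1 and MALAT1 lie high in the cloud on the left, and MALAT1 lies well above the main band of SE on the right while TUG1 lies within it.

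TUG1 was the most precisely measured of the 6. It lies at chr22:30969245-30979395 on the + strand (ENSG00000253352), with 20 transcripts over 10151 exonic bases. The annotations differ on its kind: GENCODE types it as a bidirectional promoter long noncoding RNA, and RefSeq as protein-coding. Its mean count in the authors' deposited table was 2880, close to that of MALAT1, and corresponds to 3585 on the positive and 2175 on the negative side. The log2 fold change was 0.72 (SE 0.07, interval from 0.58 to 0.86), or 1.65-fold, with an adjusted p of 8.06e-24 from DESeq2 in the authors' deposited table. At nearly the same count, then, TUG1 and MALAT1 have intervals that do not meet. Among genes of like count 82.2% had a lower fold change than TUG1, beside 97.4% for MALAT1 and 98.8% for NEAT1.

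FTX was the least counted member. The gene runs over 347 kb at chrX:73946555-74293574 on the − strand (ENSG00000230590), with 18 transcripts over 28487 exonic bases. In the authors' deposited table FTX had a mean count of 464, or 556 on the positive and 372 on the negative side. Its log2 fold change of 0.58 (SE 0.15, interval from 0.28 to 0.88), or 1.21 to 1.84-fold, had an adjusted p of 0.000548 from DESeq2 in the authors' deposited table. The interval overlaps that of TUG1 and that of LINC-PINT, which do not meet each other, so the place of FTX relative to either is open. Of genes of like count 75.0% had a lower fold change. The FTX locus overlaps 5 annotated microRNA genes, MIR374A, MIR374B, MIR374C, MIR421 and MIR545, none of which has a row. Overlap was taken by coordinates on either strand.

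LINC-PINT missed the threshold. Its 233 kb locus lies at chr7:130876809-131110176 on the − strand, where GENCODE gives the symbol to 2 gene IDs, ENSG00000226380 and ENSG00000231721. The authors' deposited table lists it on 1 row with a mean count of 896, or 949 on the positive and 844 on the negative side. The log2 fold change was 0.17 (SE 0.11, interval from −0.05 to 0.39, adjusted p = 0.236 from DESeq2 in the authors' deposited table). The interval spans 0.97 to 1.31-fold. A coding gene overlaps only the 5′ end of this locus. MKLN1, which encodes muskelin, starts 80 bases inside that end on the opposite strand and runs away from LINC-PINT. It is the 1 overlapping gene of any member that the table lists, and its log2 fold change there was −0.36 (SE 0.10, adjusted p = 0.000588 from DESeq2 in the authors' deposited table). How reads in the shared bases were assigned is not given.

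PVT1 showed the smallest difference. It runs over 307 kb from 127794533 to 128101253 on the + strand of chromosome 8 (ENSG00000249859), with 25 transcripts over 5493 exonic bases. In the authors' deposited table the mean count was 2834, with 2875 on the positive and 2793 on the negative side. Its log2 fold change was 0.04 (SE 0.09, interval from −0.13 to 0.21, adjusted p = 0.762 from DESeq2 in the authors' deposited table). The interval spans 0.917 to 1.16-fold. MALAT1, TUG1 and PVT1 thus have nearly equal mean counts, and PVT1 has an interval that meets neither of theirs. Of genes of like count 3.79% had a fold change nearer to 0. By coordinates on either strand, the PVT1 locus overlaps 4 annotated microRNA genes, MIR1204 to MIR1207, and that of LINC-PINT overlaps MIR29A and MIR29B1. None of these has a row in the table, so the long RNAs and these microRNAs could not be set side by side.

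Counts per gene also reflect length, so levels were compared per kb of the union of exons, as mean normalized counts from the authors' deposited table. NEAT1 had 667 per kb, PVT1 516, MALAT1 320, TUG1 284, LINC-PINT 57.3 and FTX 16.3. The order by level therefore differs from that by fold change. PVT1 is second by level and last by fold change, and FTX is last by level but called positive. On the positive side NEAT1 had 1143 per kb and MALAT1 509. On the negative side PVT1, with 508, was above NEAT1 with 191 and MALAT1 with 132. The members' counts summed to 38473 on the positive and 11687 on the negative side, and NEAT1 with MALAT1 made up 71.8% of the mean sum. The level of PVT1 rests on the length used: with the longest transcript in place of the union it was 1668 per kb, since that transcript has 1699 bases and the union of exons 5493.

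The surroundings of each locus were described next, since NEAT1, PVT1 and FTX are known for ties to nearby genes. NEAT1 and MALAT1 have called coding neighbours on both sides of 0. The nearest of them and the one with the smallest adjusted p lie on the negative side. FRMD8, 9248 bases from NEAT1, had a deposited log2 fold change of −0.51 (SE 0.08). RELA, the NF-kappaB subunit p65, had the smallest adjusted p within 500 kb, with −1.22 (SE 0.06) in the authors' deposited table. The DESeq2 adjusted p-values in the authors' deposited table were 3.01e-09 for FRMD8 and 2.04e-80 for RELA. TM7SF2, within 500 kb of both RNAs and added after its value was seen, lay on the positive side. It had 2.14 (SE 0.11, adjusted p = 3.41e-78 from DESeq2 in the authors' deposited table). Within 500 kb of NEAT1 the table lists 51 genes, of which 12 were positive, 15 negative and 24 not called. MALAT1 itself is not counted among them. Their median was −0.26. For MALAT1, with NEAT1 left out, 13 of 51 such genes were positive, 16 negative and 22 not called. The shares over all genes were 20.9% positive and 21.5% negative.

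Near the other loci the neighbours also lay on both sides of 0. MYC, the oncogene 53098 bases from PVT1, had a deposited log2 fold change of 0.75 (SE 0.07, adjusted p = 2.11e-24 from DESeq2 in the authors' deposited table), with an interval that does not meet that of PVT1. CHIC1, the nearest coding gene at lower coordinates than FTX, was positive with 0.76 (SE 0.15) in the authors' deposited table. FTX itself had 0.58. PODXL, which encodes the sialomucin podocalyxin, lies 390085 bases from LINC-PINT and had 2.16 (SE 0.09, adjusted p = 1.68e-129 from DESeq2 in the authors' deposited table). KLF14, on the other side of LINC-PINT, had 0.55 (SE 0.32) and was not called. Over all 98 distinct genes within 500 kb of a member, 23 were positive, 23 negative and 52 not called, with a median of −0.03. These counts are near the shares over all genes, 20.9% positive and 21.5% negative, and were not tested against them.

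**Figure D3:**
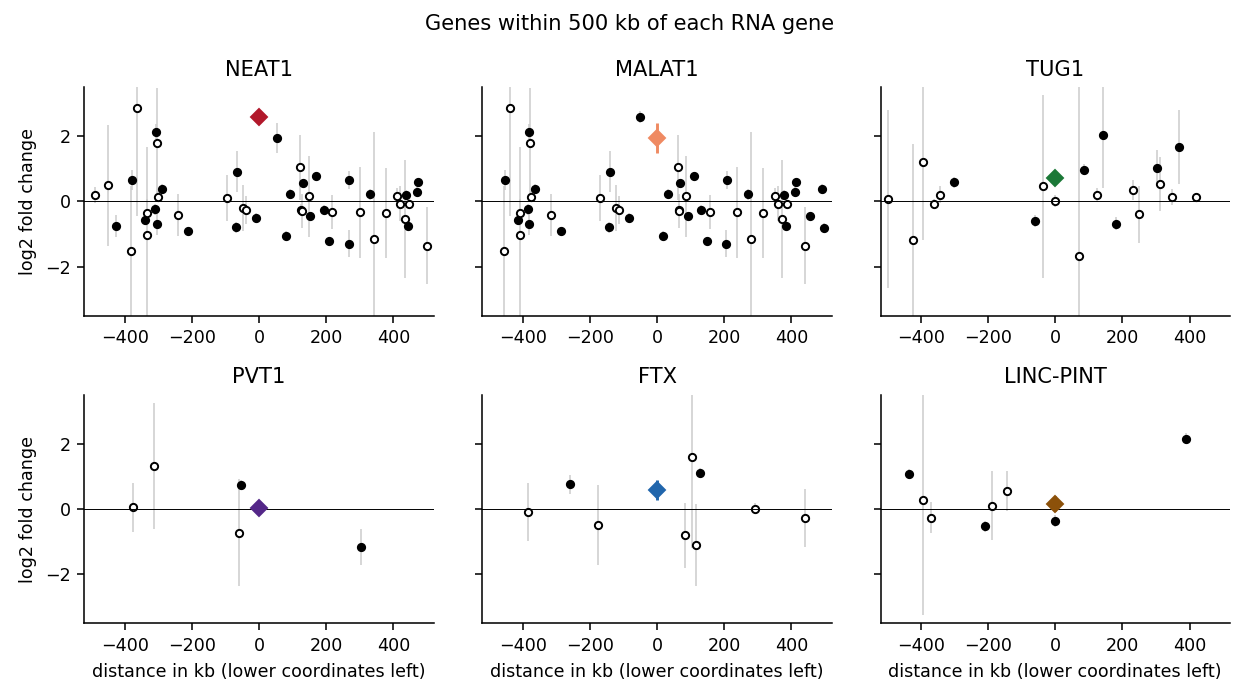
Each panel plots the deposited log2 fold change of genes within 500 kb of 1 RNA, drawn as the coloured diamond, against distance in kb. Filled points passed the adjusted threshold and open points did not, lines are intervals of 95% cut at the panel edge, and HIGD1AP10 and ENSG00000273489, at −4.71 and −4.62, fall below the axis. NEAT1 and MALAT1 each appear in the panel of the other, and no panel has neighbours on 1 side of 0 only.

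TUG1 gives the closest view of a locus, because it shares a bidirectional promoter region with MORC2, which encodes a chromatin ATPase transcribed the other way with 946 bases between the genes. MORC2 had a deposited log2 fold change of 0.01 (SE 0.09, adjusted p = 0.946 from DESeq2 in the authors' deposited table), and its interval, −0.17 to 0.20, does not meet that of TUG1. SMTN, the next coding gene on the far side, had 0.98 (SE 0.08) in that deposited table. The promoter of TUG1 is shown beside that of MALAT1, whose difference was larger, because both RNAs lie on the positive side at like counts. Both are from RefSeq on GRCh38.p14, cover 250 bases before to 50 after the annotated start, and lie on the + strand, at chr22:30969015-30969314 for TUG1 and chr11:65498795-65499094 for MALAT1. Capitals mark 4 motifs searched on both strands. The first is CCAAT, the box that the factor NF-Y binds. The GC box, known from SP1, was taken as GGGCGG and the palindromic E-box, known from MYC, as CACGTG. The TATA motif of core promoters was taken as TATAAA.
TUG1: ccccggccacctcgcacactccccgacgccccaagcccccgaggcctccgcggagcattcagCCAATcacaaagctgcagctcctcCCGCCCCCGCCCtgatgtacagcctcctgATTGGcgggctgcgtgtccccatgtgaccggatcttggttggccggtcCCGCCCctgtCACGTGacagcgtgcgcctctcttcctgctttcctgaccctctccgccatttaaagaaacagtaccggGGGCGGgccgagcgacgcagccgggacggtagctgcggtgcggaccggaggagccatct
MALAT1: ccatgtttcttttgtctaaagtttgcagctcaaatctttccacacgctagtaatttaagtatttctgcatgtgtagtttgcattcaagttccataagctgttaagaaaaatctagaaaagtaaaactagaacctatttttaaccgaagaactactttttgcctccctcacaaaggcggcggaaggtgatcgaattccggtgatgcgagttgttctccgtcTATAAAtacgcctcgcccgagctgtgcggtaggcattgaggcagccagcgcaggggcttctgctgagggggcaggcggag
TUG1 holds 2 CCAAT, 4 GC boxes and 1 E-box, and MALAT1 a single TATAAA and none of the rest. MALAT1 has a second RefSeq start upstream, whose promoter holds 5 GC boxes. Of 35116 RefSeq promoters of the same length, 34.6% hold CCAAT, 45.0% the GC box, 7.26% the E-box and 11.5% TATAAA. The table of promoters has entries used here for 4 of the 6 members, 8 promoters in all. That of FTX holds none of the 4 motifs, and the 4 of LINC-PINT hold 1 or 2 GC boxes each, 1 of them also a CCAAT and an E-box. A match is a run of letters and not a binding site.

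Proteins known to work with these RNAs were counted from lists, each read against the medians of 0.03 for all genes and −0.15 for equally counted genes. The shares called were 20.9% positive and 21.5% negative for all genes. For equally counted genes they were 33.3% and 46.8%. The counts of each list are to be read beside these shares, and no list was tested against them. Of 36 paraspeckle proteins, the partners of NEAT1, 32 are listed: 8 were positive, 22 negative and 2 not called, with a median of −0.27. RBM3, a cold-inducible RNA-binding protein, had a deposited log2 fold change of −0.99 (SE 0.07), CPSF6, a cleavage factor subunit, −0.90 (SE 0.06), and MATR3, the nuclear matrix protein matrin, −0.69 (SE 0.06). AHDC1 was on the other side with 1.10 (SE 0.08) in the authors' deposited table. So were NUDT21 with 1.83 (SE 0.17) and SMARCA4 with 1.01 (SE 0.11), both added after their values were seen. When a log2 fold change of at least 1 in size was also required, 3 paraspeckle proteins were called, all positive. NONO, SFPQ and PSPC1, the DBHS proteins that bind NEAT1 directly and were picked after their values were seen, had −0.39, −0.18 and −0.54. NEAT1 at 2.58 thus lay on the other side of 0 from all 3 of these partners. The call of SFPQ rests on the scaling: with the median of equally counted genes set to 0 it had −0.03 and was not called, while NONO and PSPC1 had −0.24 and −0.39.

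The other partner lists were more divided. Of 25 nuclear speckle proteins, the compartment of MALAT1, 22 are listed: 6 were positive, 9 negative and 7 not called, with a median of 0.03 that turns to −0.09 when total counts are made equal. With the median of equally counted genes set to 0, it was 0.18, with 10 positive and 6 negative. PNN, the speckle protein pinin, had a deposited log2 fold change of 0.91 (SE 0.07) and SRRM1, a splicing coactivator, 0.40 (SE 0.06). CLK3, a kinase of SR proteins, had −0.74 (SE 0.08) and THRAP3 −0.47 (SE 0.06) in the same deposited table. Of 13 factors that cut or bind the 3′ ends of NEAT1 and MALAT1, 11 are listed: 4 were positive, 6 negative and 1 not called, with a median of −0.31. The RNase P subunits POP1, POP4 and RPP30 had −1.21 (SE 0.08), −0.94 (SE 0.07) and −0.80 (SE 0.08). Other RNase P subunits, named after their values were seen, were called positive: POP5 with 0.60 (SE 0.13), RPP14 with 0.90 (SE 0.20) and RPP38 with 0.73 (SE 0.28), so the subunits lay on both sides. ELAC2, which trims the tRNA-like product, had 0.52 (SE 0.07) in the authors' deposited table.

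Of 22 factors of nuclear RNA decay, 17 are listed: 4 were positive, 8 negative and 5 not called, with a median of −0.20. With the median of equally counted genes set to 0, 5 were positive and 5 negative, with a median of −0.05. The exosome subunits EXOSC2 and EXOSC10 had deposited log2 fold changes of 0.63 (SE 0.08) and −0.51 (SE 0.07), the helicase MTREX had −0.54 (SE 0.07) and the exonuclease XRN2 −0.42 (SE 0.06). All 20 Polycomb genes, the complexes linked to TUG1, are listed: 5 were positive, 7 negative and 8 not called, with a median of −0.04 that turns to 0.11 when the median of equally counted genes is set to 0. CBX6, a chromodomain subunit, had 1.28 (SE 0.08), and RNF2, BMI1 and SUZ12, core subunits of the repressive complexes, had −1.19 (SE 0.11), −1.10 (SE 0.11) and −0.95 (SE 0.09) in the authors' deposited table.

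The 6 RNAs were last set beside other long noncoding RNAs. Of all 5143 long noncoding RNA genes of the table, 707 were called positive and 379 negative. Of 23 others described as nuclear or chromatin-bound, 15 are listed: 7 were positive, 2 negative and 6 not called, with a median of 0.57. MIR100HG, a microRNA host, had a deposited log2 fold change of 1.83 (SE 0.13), DLEU2 1.60 (SE 0.19) and MIR31HG 1.32 (SE 0.25), while MIR22HG had −0.78 (SE 0.11). Of 11 described as cytoplasmic, 6 are listed: 2 were positive, none negative and 4 not called, with a median of 0.29. ZFAS1 and GAS5, hosts of small nucleolar RNAs, had 0.59 (SE 0.08) and 0.48 (SE 0.09), and NORAD, which holds PUMILIO proteins in the cytoplasm, had 0.11 (SE 0.06) in the authors' deposited table. The fold changes of TUG1 and FTX are of the size of those of ZFAS1 and GAS5. Those of NEAT1 and MALAT1 exceed the point value of every cytoplasmic RNA listed, among which H19 and LINC-ROR have mean counts under 3 and wide errors. The difference between the nuclear and the cytoplasmic list was not tested.

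**Figure D4:**
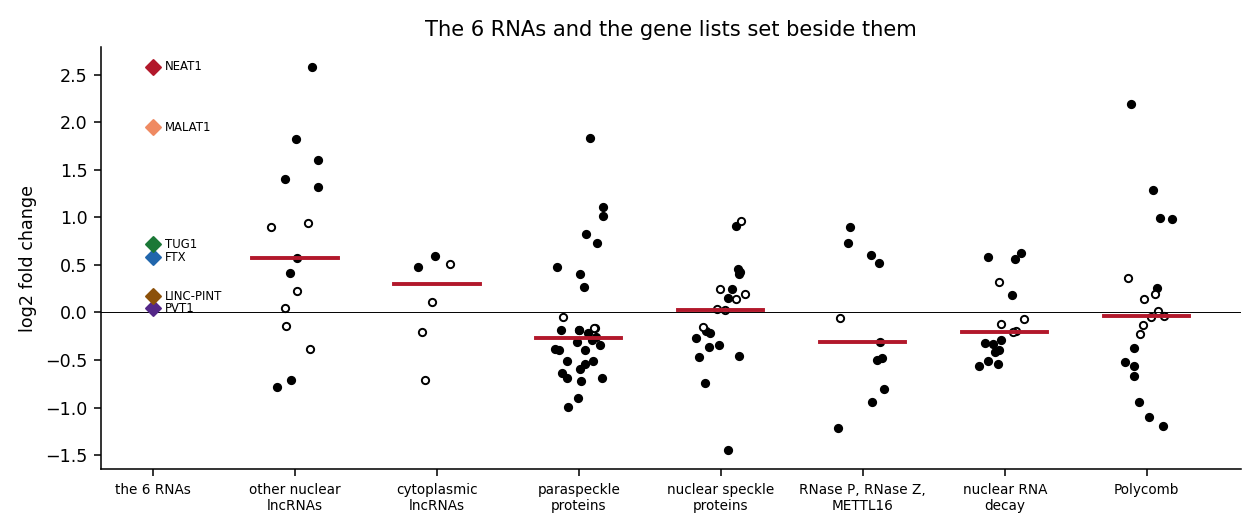
Each point is the deposited log2 fold change of 1 gene, in columns for the 6 RNAs (coloured diamonds), other long noncoding RNAs and the partner lists. Filled points passed the adjusted threshold, open points did not, and the red bar of each list is its median, which runs from −0.31 for the 3′-end factors (RNase P, RNase Z, METTL16) to 0.57 for the other nuclear RNAs.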

How the data were processed

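RNA of 6 NCI-H1299 libraries was sequenced, 3 per group. RNA was extracted with RNAiso Plus and libraries were made with the TruSeq reagents, per the labels' protocols, whose text speaks of RIP-seq. The submitters' processing notes name fastp 0.23.2, STAR 2.7.10a, featureCounts and DESeq2, which the authors used, and the hg38 build. The annotation, strand setting, ribosomal RNA depletion or poly(A) selection, and depth per library are unstated in the sources used here.

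The single deposited file is a comparison table. Its mean normalized count is a signal that the authors deposited, per the file headers. The authors deposited the fold change and SE on what was read as a log2 scale, as DESeq2 gives it. The Wald statistic is a score, and each p-value, adjusted or not, is the authors' deposited value. The file's own up and down calls follow an unadjusted p under 0.05 and cover 11914 genes, so the deposited adjusted p under 0.05 was used instead.

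Of 25289 rows, only the first of each repeated symbol was kept, which left 25287 genes. The deposited adjusted p matched a Benjamini-Hochberg adjustment within 1.39e-15. Intervals of 95% extend 1.96 SE to each side of the fold change. Coordinates come from GENCODE release 29, to which 23672 genes (93.6%) were matched. An edgeR fit was planned for counts of single libraries and was not run, since the file holds none. The scripts were tested on simulated data. Alternatives were stricter, unadjusted and other adjusted p-values, a minimum fold change, a mean count of at least 10, 3 ways to centre the fold changes, other lengths and other windows.

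The members and gene lists were chosen with earlier results of these data known. Named genes are the members, ALDH18A1, overlapping genes, the nearest coding genes, the neighbour with the smallest adjusted p and up to 4 genes per list by adjusted p. Some genes that this rule takes are not reported here. Markers, the 3 DBHS proteins, NUDT21, SMARCA4, TM7SF2 and genes off a plot's axis or with low counts were added after their values were seen. Scripts ran on matplotlib 3.10.9, pandas 2.3.3, numpy 2.4.6 and scipy 1.17.1 under Python 3.11.15.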

Additional observations from a re-analysis of the deposited data

How the results depend on the processing

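NEAT1, MALAT1, TUG1 and FTX kept a positive call under an adjusted p under 0.01, an unadjusted p, Benjamini-Yekutieli adjustment, a minimum mean count of 10 and 3 shifts of the fold changes, with 4 members called in each except one shift. Requiring a log2 fold change of 1 or more in size left 2 members, since TUG1 at 0.72 and FTX at 0.58 fall short, and 4550 of all genes. Shifting to equal total counts turned PVT1 to −0.077 (Wald test on the shifted DESeq2 value, adjusted p = 0.533). Setting the median of equally counted genes to 0, a shift of 0.15 chosen after seeing the data, put LINC-PINT past the threshold at 0.32 with an adjusted p of 0.0111 from the same Wald test on DESeq2 values, and 5 members were called. Over its other settings the adjusted p of LINC-PINT ran from 0.189 to 1. The same shift moved the calls of all genes from 5283 positive and 5435 negative to 6326 and 4360, and those of paraspeckle proteins from 22 to 15 negative with 8 positive. Among genes at least as deeply counted as FTX 6412 were called. With the longest transcript as the length, levels per kb were 667 for NEAT1, 325 for MALAT1, 386 for TUG1 and 1668 for PVT1. FTX had 37.8 and LINC-PINT 140. PVT1 then lay above NEAT1, and TUG1 above MALAT1. Neighbours past the threshold numbered 46 of 98 within 500 kb, 12 of 23 within 100 kb and 75 of 167 within 1000 kb. The share over all genes was 42.4%. No paired analysis was possible because the file gives no values per library, and leaving out each replicate was not run for the same reason. The cause of these moves was not tested. The main limits are the unnamed direction of the fold change, the unknown strand and RNA selection, and an SE that for MALAT1 leaves its fold open from 2.78 to 5.35.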
